A study of Mus musculus with 5 samples.

Results

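The subject is a set of 10 innate pattern receptor genes of blood cells: the Toll-like receptor genes Tlr2, Tlr4, Tlr7 and Tlr9, the co-receptor gene Cd14, the C-type lectin receptor genes Clec4e, Clec4d and Clec7a, and the formyl peptide receptor genes Fpr1 and Fpr2. They were chosen by name, and all 10 of them were found among the 33696 genes that each count matrix lists. The study applied single-cell RNA sequencing to murine blood mononuclear cells, in a model of the form of heart failure in which ejection fraction is preserved (HFpEF). Controls were C57BL/6N mice on regular chow, which gave 2 libraries (chow 1 and chow 2). Mice on a high-fat diet (HFD) together with L-NAME, which inhibits the endothelial nitric oxide synthase, for 15 weeks gave 2 libraries (HFD + L-NAME 1 and 2). A subgroup on the same 15-week regimen also received nitro-oleic acid (NO2-OA), an electrophilic nitrated fatty acid, for its last 4 weeks and gave 1 library (HFD + L-NAME + NO2-OA 1). The model combines a dietary and a vascular challenge and is not a genetic one. The labels give neither the age and sex of the mice nor the number of mice behind a library, so p-values measure only the spread between these libraries.

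Pattern receptors recognise molecules that are common in microbes or are set free by damaged cells, and they start inflammatory gene expression in the cell that carries them. Tlr2 senses bacterial lipoproteins and Tlr4 senses lipopolysaccharide, which CD14 hands over at the cell surface. Tlr7 and Tlr9 sense single-stranded RNA and unmethylated DNA inside endosomes. Clec4e (Mincle) and Clec4d (macrophage C-type lectin) bind glycolipids such as those of mycobacteria and signal through the adaptor chain Fcer1g and the kinase Syk. Clec7a (Dectin-1) binds fungal beta-glucan. Fpr1 and Fpr2 are chemoattractant receptors for formylated peptides of bacteria and mitochondria. Neutrophils, monocytes and macrophages are known as the main carriers of most of these receptors in blood and tissue.

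The libraries held 8488 to 17997 cell barcodes and 71216133 to 122022000 unique molecular identifiers (UMIs, counts of captured RNA molecules). After filtering and removal of predicted doublets, 54679 cells were kept, 7155 to 14729 per library. Any pair of libraries had 28 to 77 cell barcodes in common, at most 0.613% of the smaller library. Cells were grouped without the 10 receptor genes, 5 of which would otherwise have been among the 2000 variable genes used. Groups were named from marker genes as neutrophil-like, classical monocyte-like and so on. The classical monocyte-like class (104 to 601 cells per library) was led by Ccr2, Chil3 and Vcan and the non-classical monocyte-like class (227 to 800 cells) by Ace, Cd300e and Pparg. Several libraries stood apart in makeup. Cavity-type macrophage-like cells, led by Prg4, Alox15 and C1qa, genes of serous cavity and tissue macrophages, were found only in chow 2 (102 cells) and HFD + L-NAME 2 (296 cells). Neutrophil-like cells numbered 9 in chow 2 against 293 to 531 in the other libraries, although the density gradient used is meant to remove them. A B-like group led by heat-shock genes such as Hspa1a held 3638 kept cells of chow 1 and 40 of chow 2. No dendritic-like cells remained in the NO2-OA library, where all 33 conventional and 2 plasmacytoid dendritic-like barcodes were called doublets. Fitted changes of the receptor genes over all cells, for HFD + L-NAME against chow, are therefore given with and without the neutrophil-like and macrophage-like cells. Counts of genes over all cells are given only with them.

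Levels below are the UMIs of a gene per 1000000 UMIs (CPM) of the summed cells of a class in a library. They are compared between classes and libraries for 1 gene at a time and not between genes, since no gene lengths enter. Mean levels are over the libraries with at least 20 cells of the class and carry the standard deviation (SD) between them. T-like cells are not known as main carriers of these receptors. Cd14 stood there at 0.20 to 2.12 CPM, Clec4e at 0.40 to 1.40 CPM and Tlr4 at 0.34 to 0.68 CPM. Clec4d stood at 0.87 to 3.74 CPM, Tlr7 at 1.49 to 2.82 CPM and Tlr2 at 0.87 to 1.86 CPM. These levels serve as a yardstick for stray signal of the same gene, and whether they are stray was not tested.

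Of the 10 genes, 7 had their highest mean level in neutrophil-like cells: Tlr2, Tlr4, Clec4e, Clec4d, Clec7a, Fpr1 and Fpr2. Cd14 was highest in the cavity-type macrophage-like cells, Tlr7 in the non-classical monocyte-like cells and Tlr9 in the B-like cells. The heat map of mean levels by class shows these separate patterns.

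**Figure D1:**
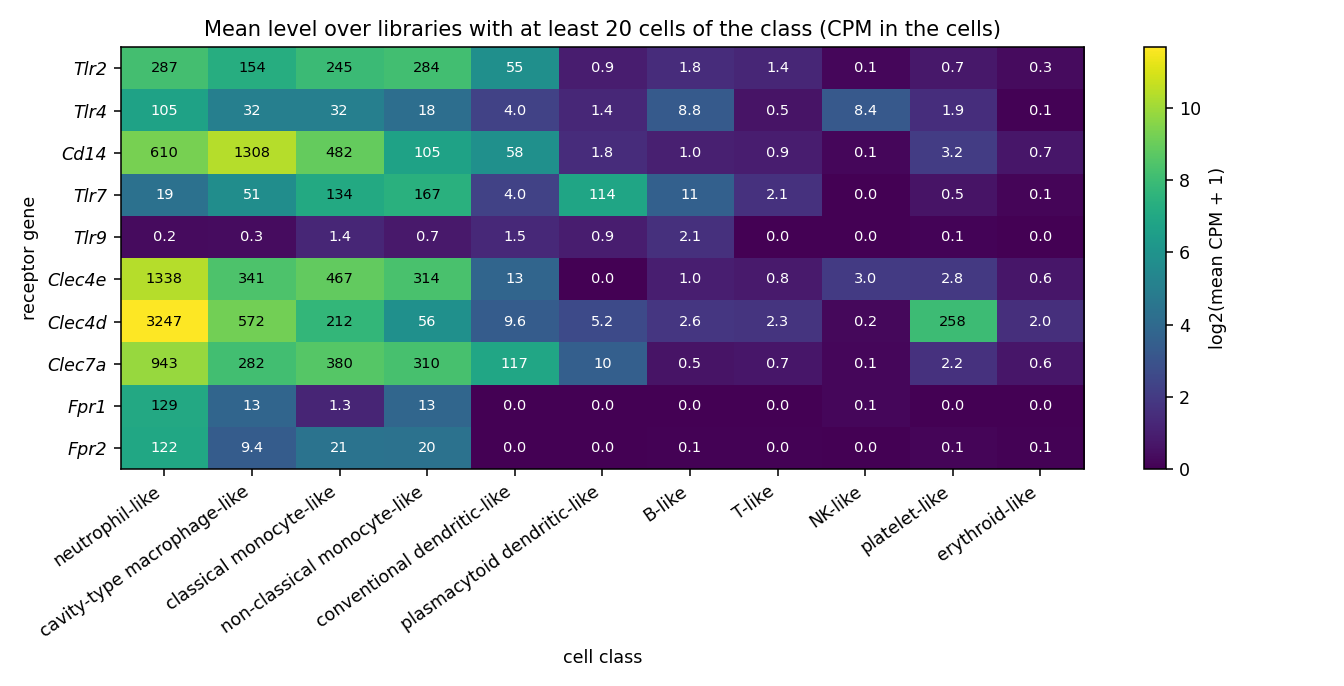
Heat map of the mean level of each receptor gene (rows) in each cell class (columns) over the libraries with at least 20 cells of the class; the number in each field is the mean in CPM and the colour is log2(mean CPM + 1). Clec4d stands at 258 CPM in platelet-like cells, where no other of these genes averages above 3.24 CPM, and Tlr7 is spread over monocyte-like and plasmacytoid dendritic-like cells.

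The surface Toll-like receptor genes were shared among the myeloid classes. Tlr2 averaged 287 ± 72.9 CPM (SD, n = 4) in neutrophil-like cells, 284 ± 102 CPM (n = 5) in non-classical and 245 ± 59.7 CPM (n = 5) in classical monocyte-like cells. The library ranges of these 3 classes overlapped, so their order is within the spread. The macrophage-like cells of chow 2 and HFD + L-NAME 2 stood lower, at 153 and 156 CPM, and conventional dendritic-like cells at 55.0 ± 23.9 CPM (n = 4). Tlr4 was more confined to neutrophil-like cells, with 111, 145, 88.9 and 73.5 CPM in chow 1, HFD + L-NAME 1, HFD + L-NAME 2 and the NO2-OA library. Even the lowest of these lay above every other class in any library with at least 20 cells, the next being 59.6 CPM in classical monocyte-like cells of HFD + L-NAME 1. Tlr4 was also detected in lymphoid cells: B-like cells held 11.2 and 8.69 CPM in the chow libraries, 7.76 and 8.55 CPM in the HFD + L-NAME libraries and 7.73 CPM in the NO2-OA library, each above the highest T-like value of 0.68 CPM. By UMIs, 30.7% of all Tlr4 molecules came from B-like cells, the most abundant class, and 22.0% from the 1634 neutrophil-like cells. NK-like cells, killer lymphocytes, stood at 8.71 and 8.48 CPM in chow, and their range overlapped that of B-like cells.

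Cd14, whose protein presents lipopolysaccharide to the TLR4 complex, was highest in the macrophage-like cells, with 968 CPM in chow 2 and 1649 CPM in HFD + L-NAME 2. Neutrophil-like cells followed at 610 ± 194 CPM (SD, n = 4) and classical monocyte-like cells at 482 ± 182 CPM (n = 5), and the ranges of these last classes overlapped. Non-classical monocyte-like cells held less, 105 ± 49.5 CPM (n = 5), with a highest library of 155 CPM below the lowest classical one of 210 CPM. The low Cd14 level of non-classical monocytes is a textbook property of this class in several species. Since the macrophage-like cells were few but rich in Cd14, they supplied 42.7% of all Cd14 UMIs of the series from 398 cells.

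The endosomal receptor genes had another distribution. Tlr7 stood at 196, 148, 154, 169 and 169 CPM in non-classical monocyte-like cells, in the order chow 1, chow 2, HFD + L-NAME 1, HFD + L-NAME 2 and NO2-OA. In the same order it stood at 174, 130, 130, 123 and 113 CPM in classical monocyte-like cells. The non-classical value was the higher one within each of the 5 libraries. Plasmacytoid dendritic-like cells, the professional interferon producers known for Tlr7, held 94.5 and 134 CPM in the libraries with at least 20 such cells, chow 2 and HFD + L-NAME 2, which overlapped the classical range. Neutrophil-like cells held only 13.7 to 21.9 CPM. Tlr9 was sparse everywhere. Of its 408 UMIs in the whole series 71.3% were in B-like cells, at 1.57 to 2.71 CPM, and classical monocyte-like cells ranged from 0 to 2.51 CPM, so no order of classes could be read at this depth.

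The C-type lectin receptor genes Clec4e and Clec4d are neighbours on chromosome 6 and are known to act as partners at the cell surface, while their levels parted most clearly in one class described below. Fpr1 and Fpr2 are neighbours on chromosome 17. For these neighbour pairs the 250 bases before each start site are shown, from RefSeq on build GRCm38.p6, whereas the count matrices were made on mm39. Such a window was used for 7 of the 10 genes. It was searched on both strands for 3 motifs. The ETS motif, bound by factors such as the myeloid factor PU.1, was searched as GAGGAA. The GATA-type motif was searched as AGATAA. The AP-1-type motif, which JUN and FOS bind, was searched as TGANTCA. Letters of a match are in capitals, and a match on the opposite strand is printed as its reverse complement.
Clec4e, chr6:123289872-123290121, minus strand: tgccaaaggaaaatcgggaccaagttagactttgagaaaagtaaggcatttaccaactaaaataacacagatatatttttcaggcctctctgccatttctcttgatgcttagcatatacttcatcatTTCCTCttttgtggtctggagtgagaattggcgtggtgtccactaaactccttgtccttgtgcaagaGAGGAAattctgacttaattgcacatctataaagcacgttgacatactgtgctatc
Clec4d, chr6:123261857-123262106, plus strand: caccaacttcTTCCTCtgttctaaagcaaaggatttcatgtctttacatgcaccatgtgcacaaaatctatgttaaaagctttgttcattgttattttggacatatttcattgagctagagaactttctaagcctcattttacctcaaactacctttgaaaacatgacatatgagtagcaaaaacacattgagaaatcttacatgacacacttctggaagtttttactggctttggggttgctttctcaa
Fpr1, chr17:17883940-17884189, minus strand: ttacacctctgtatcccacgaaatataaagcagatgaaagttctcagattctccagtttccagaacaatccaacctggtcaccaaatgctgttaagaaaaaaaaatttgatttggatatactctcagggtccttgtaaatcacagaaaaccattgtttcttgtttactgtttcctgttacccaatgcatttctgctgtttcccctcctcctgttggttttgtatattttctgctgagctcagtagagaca
Fpr2, chr17:17887574-17887823, plus strand: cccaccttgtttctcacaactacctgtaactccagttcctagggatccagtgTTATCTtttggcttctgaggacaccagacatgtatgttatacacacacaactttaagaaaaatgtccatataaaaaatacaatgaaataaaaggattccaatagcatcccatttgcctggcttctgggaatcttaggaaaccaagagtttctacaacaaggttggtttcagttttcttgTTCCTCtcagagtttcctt
The Clec4e window holds GAGGAA at 2 places, 56 to 51 bases before the start and, on the opposite strand, 123 to 118 bases before it. The Clec4d window holds it once, on the opposite strand, 240 to 235 bases before the start. Fpr2 holds it 19 to 14 bases before the start and holds AGATAA 198 to 193 bases before it, both on the opposite strand, and no searched motif was found in the Fpr1 window. Over all 32851 windows of this length, 23.3% hold GAGGAA, 9.99% AGATAA and 6.75% TGANTCA. The matches are described as letters only and were not related to binding.

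Clec4d was by far highest in neutrophil-like cells, with 3555, 3523, 3347 and 2563 CPM in chow 1, HFD + L-NAME 1, HFD + L-NAME 2 and the NO2-OA library. The 9 neutrophil-like cells of chow 2 gave 2628 CPM with a wide counting interval of 2231 to 3076 CPM (exact Poisson, 95%, counting error only). Macrophage-like cells came next at 477 and 667 CPM. Next came the platelet-like cells at 258 ± 38.2 CPM (SD, n = 5), whose range of 210 to 293 CPM overlapped that of classical monocyte-like cells, 115 to 302 CPM. Non-classical monocyte-like cells stood lower, at 26.3 to 80.4 CPM.

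Clec4e followed another order. Neutrophil-like cells were again highest at 1338 ± 278 CPM (n = 4), then classical monocyte-like cells at 467 ± 228 CPM (n = 5), macrophage-like cells at 361 and 322 CPM and non-classical monocyte-like cells at 314 ± 84.2 CPM (n = 5). The last 3 ranges overlapped. The 9 neutrophil-like cells of chow 2 gave 356 CPM with an interval of 220 to 544 CPM and are not in the mean. Platelet-like cells held 2.81, 0, 1.34, 4.67 and 5.15 CPM of Clec4e in the order chow 1, chow 2, HFD + L-NAME 1, HFD + L-NAME 2 and NO2-OA, from 0 to 12 UMIs a library, against 0.40 to 1.40 CPM in T-like cells.

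Platelet-like cells thus carried Clec4d without a comparable amount of Clec4e, in each of the 5 libraries. For every 100 Clec4d UMIs there were 1.1 Clec4e UMIs in platelet-like cells (26 against 2320 UMIs over all libraries), 40.8 in neutrophil-like, 53.5 in macrophage-like, 232 in classical and 574 in non-classical monocyte-like cells. The summed neutrophil markers in platelet-like cells were only 0.019% to 0.189% of their level in neutrophil-like cells. Clec4d itself stood at 224, 280, 210, 293 and 283 CPM in the order chow 1, chow 2, HFD + L-NAME 1, HFD + L-NAME 2 and NO2-OA, and the part of neutrophil RNA in it was not tested. The signal was also present at even depth: with each cell thinned to 2000 UMIs, 33.4%, 40.0%, 32.8% and 41.9% of platelet-like cells in the chow and HFD + L-NAME libraries held a Clec4d UMI, against 0.22% to 1.25% of T-like cells in any library. The NO2-OA library, with only 26 platelet-like cells of that depth, was higher still. Before thinning the shares were 25.7% to 62.8% in platelet-like cells and 0.55% to 3.34% in T-like cells, at median depths over all libraries of 1370.5 and 6564 UMIs per cell. A finer grouping split the platelet-like cells into a shallow and a deep group, with 116 to 324 CPM and 210 to 271 CPM of Clec4d across libraries, so both carried it. Platelets are known for the related lectin gene Clec1b, which is one of the markers that named the class.

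**Figure D2:**
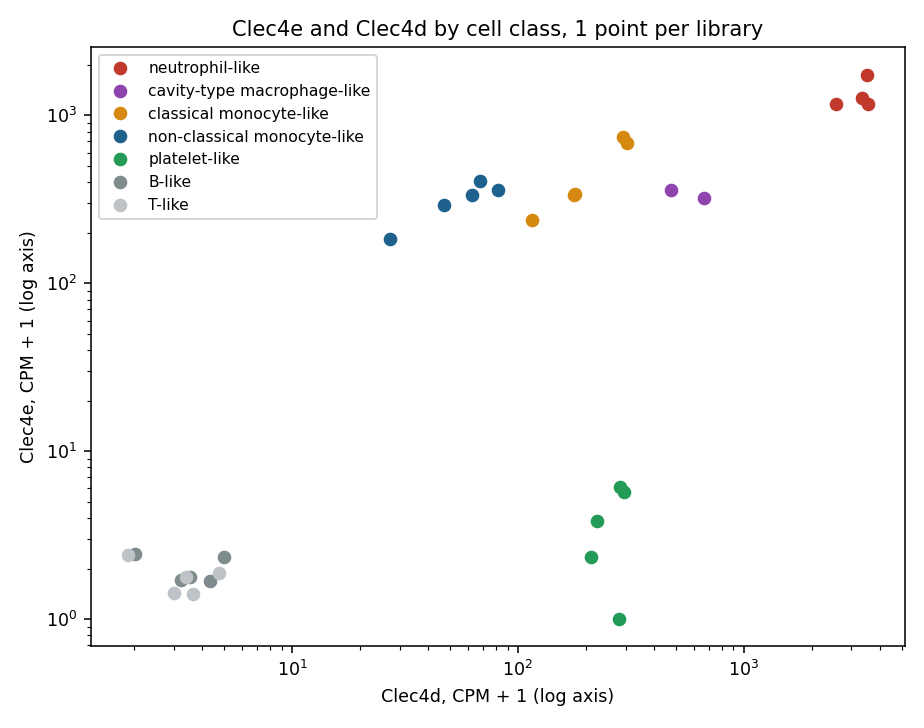
Clec4e against Clec4d in CPM + 1 on log axes, 1 point per library and class where that library had 20 or more such cells. Platelet-like points lie at the Clec4d level of classical monocyte-like cells (210 to 293 CPM) but at 0 to 5.15 CPM of Clec4e, away from all myeloid classes.

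Clec7a was highest in neutrophil-like cells at 943 ± 186 CPM (n = 4), followed by classical monocyte-like cells at 380 ± 88.7 CPM (n = 5), non-classical monocyte-like cells at 310 ± 57.1 CPM (n = 5), macrophage-like cells at 255 and 310 CPM and conventional dendritic-like cells at 117 ± 42.6 CPM (n = 4). The ranges of both monocyte-like classes and the macrophage-like cells overlapped, and those of the neutrophil-like and dendritic-like cells lay apart from them. Fpr1 was the gene most restricted to neutrophil-like cells, with 66.5, 159, 109 and 182 CPM in chow 1, HFD + L-NAME 1, HFD + L-NAME 2 and NO2-OA, and these cells held 77.4% of its UMIs. Fpr2 averaged 122 ± 24.2 CPM (n = 4) there and 20.8 ± 10.1 and 20.1 ± 10.0 CPM (n = 5 each) in classical and non-classical monocyte-like cells. The 2 formyl peptide receptor genes differed between monocyte classes. Fpr1 stood at 1.30 ± 0.86 CPM in classical and 13.4 ± 9.57 CPM in non-classical monocyte-like cells (n = 5 each), with the non-classical value above the classical one in every library.

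The neutrophil-like cells could not be tested between groups, since chow 2 had 9 of them, so their values are a description of chow 1 beside the 3 libraries on the regimen. Cd14 was 337 CPM in chow 1 and 725, 607 and 770 CPM in HFD + L-NAME 1, HFD + L-NAME 2 and NO2-OA. Fpr1 was likewise lowest in chow 1, at 66.5 CPM against 109 to 182 CPM, and Fpr2 overlapped, with 105 CPM against 104 to 156 CPM. The lectin genes showed no such gap. Clec4e in chow 1 equalled the NO2-OA library, at 1168 CPM each, below 1748 and 1268 CPM in HFD + L-NAME. Chow 1 lay above the others for Clec4d (3555 against 2563 to 3523 CPM) and among them for Clec7a (1069 against 689 to 1093 CPM). The neutrophil markers themselves summed to 56564 CPM in chow 1 and to 129616, 105681 and 169446 CPM in the 3 libraries on the regimen. Erythroid markers in these cells summed to 1849 CPM in chow 1 and 9374, 5466 and 18981 CPM in the others, in the same order, and the part of either in the receptor values was not tested. With cells thinned to 2000 UMIs, a Clec4e UMI was found in 67.9% to 79.6% of the neutrophil-like cells with a Clec4d UMI in these 4 libraries. The share among cells without a Clec4d UMI is not given here, so a link between the lectins within cells cannot be read from this.

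The first comparison asked which genes of circulating cells differ between the heart failure regimen and chow. Counts were summed per library and class and tested with edgeR's quasi-likelihood test over all genes of the class, with Benjamini-Hochberg adjustment and a threshold of 0.05. All 10 receptor genes were tested in classical monocyte-like cells without any passing, and 3 (Cd14, Clec4e and Clec4d) had an unadjusted p below 0.05. The test called 1 of 12028 genes there (0.00831%), and 492 had an unadjusted p below 0.05. DESeq2 called 8 genes higher and 2 lower and again none of the receptors. The called gene was Gab1, an adaptor of growth factor signalling that lies outside the naming rule.

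Cd14 was the receptor gene with the clearest separation in classical monocyte-like cells. It stood at 390 and 210 CPM in the chow libraries, 660 and 597 CPM in the HFD + L-NAME libraries and 552 CPM with NO2-OA. All 3 libraries on the regimen lay above both chow libraries, and the counting intervals (367 to 413 CPM in chow 1, 561 to 634 CPM in HFD + L-NAME 2) did not meet. The fitted log2 fold change was 1.11 ± 0.31 (approximate standard error, SE) with an adjusted p of 0.811 in edgeR, the lowest of the receptor genes in any class tested. Without chow 2, the lowest library, the fitted value was 0.72. Without chow 1 it was 1.61, with the 1 chow library left assumed to vary like the other groups. With no filter on low counts it passed (adjusted p = 0.028 in edgeR). The share of all genes that passed in that setting is not given here.

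The lectin pair Clec4e and Clec4d pointed the same way with a thinner margin. Clec4e stood at 334 and 236 CPM in chow, 681 and 341 CPM in HFD + L-NAME and 741 CPM with NO2-OA. Clec4d stood at 176 and 115 CPM in chow, 302 and 178 CPM in HFD + L-NAME and 291 CPM with NO2-OA. For both genes HFD + L-NAME 1 and the NO2-OA library were high, whereas HFD + L-NAME 2 lay within the counting interval of chow 1 (314 to 356 CPM for Clec4e, 161 to 192 CPM for Clec4d). The fitted log2 fold changes were 0.90 ± 0.36 for Clec4e and 0.78 ± 0.33 for Clec4d, neither past adjustment in edgeR. Without HFD + L-NAME 1 they were 0.24 and 0.28, and without chow 1 they were 1.16 and 1.12.

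Tlr4, the signalling partner of CD14, stood at 22.7 and 5.86 CPM in chow, 59.6 and 23.8 CPM in HFD + L-NAME and 47.6 CPM with NO2-OA. Chow 2 was lowest, and HFD + L-NAME 2 did not differ from chow 1 beyond counting error (17.1 to 32.2 against 17.5 to 28.9 CPM). The fitted log2 fold change of 1.71 ± 0.78 did not pass the test, and it ranged from 0.77 without HFD + L-NAME 1 to 2.94 without chow 1. With no filter on low counts it passed (adjusted p = 0.042 in edgeR), again with no share of all genes passing given here. Clec7a went the other way, with 486 and 449 CPM in chow, 337 and 361 CPM in HFD + L-NAME and 265 CPM with NO2-OA. All 3 libraries on the regimen were below both chow libraries, at a fitted log2 fold change of -0.39 ± 0.24 that did not pass the test. Tlr2 at 346 and 187 CPM in chow and 230 and 229 CPM in HFD + L-NAME overlapped, with -0.17 ± 0.30. Tlr7 with -0.22 ± 0.25 and Fpr2 with 0.19 ± 0.66 also overlapped, although Fpr2 was 1.84 without chow 2.

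Counted over the class, 4 of 10 receptor genes (Tlr4, Cd14, Clec4e and Clec4d) had both HFD + L-NAME libraries above both chow libraries, a pattern that 14.5% of all genes tested also showed. Clec7a and the sparse Tlr9 had both below, as did 15.5% of all genes. Summed markers of other cells moved alongside. Markers of neutrophils in classical monocyte-like cells summed to 204 and 179 CPM in chow, 341 and 225 CPM in HFD + L-NAME and 395 CPM with NO2-OA, with 4 of 10 markers above in both HFD + L-NAME libraries and Ly6g at 0. That is at most 0.360% of the level in neutrophil-like cells. Most of this sum came from Csf3r and Mmp8. In the order chow 1, chow 2, HFD + L-NAME 1, HFD + L-NAME 2 and NO2-OA, Csf3r stood at 146, 100, 95.4, 115 and 102 CPM. Mmp8 stood at 47.5, 63.6, 107, 74.2 and 146 CPM and S100a8 at 3.84, 12.3, 52.7, 15.7 and 81.8 CPM in that order. Erythroid markers summed to 74.4 and 37.0 CPM in chow, 160 and 266 CPM in HFD + L-NAME and 350 CPM with NO2-OA, with 5 of 7 markers above. The class's own markers summed to 4378 and 4619 CPM in chow, 6058 and 5349 CPM in HFD + L-NAME and 6318 CPM with NO2-OA, while non-classical markers in it summed to 965, 1194, 624, 935 and 497 CPM in the same order. The part of these neutrophil, erythroid, classical and non-classical markers in the receptor values was not tested.

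**Figure D3:**
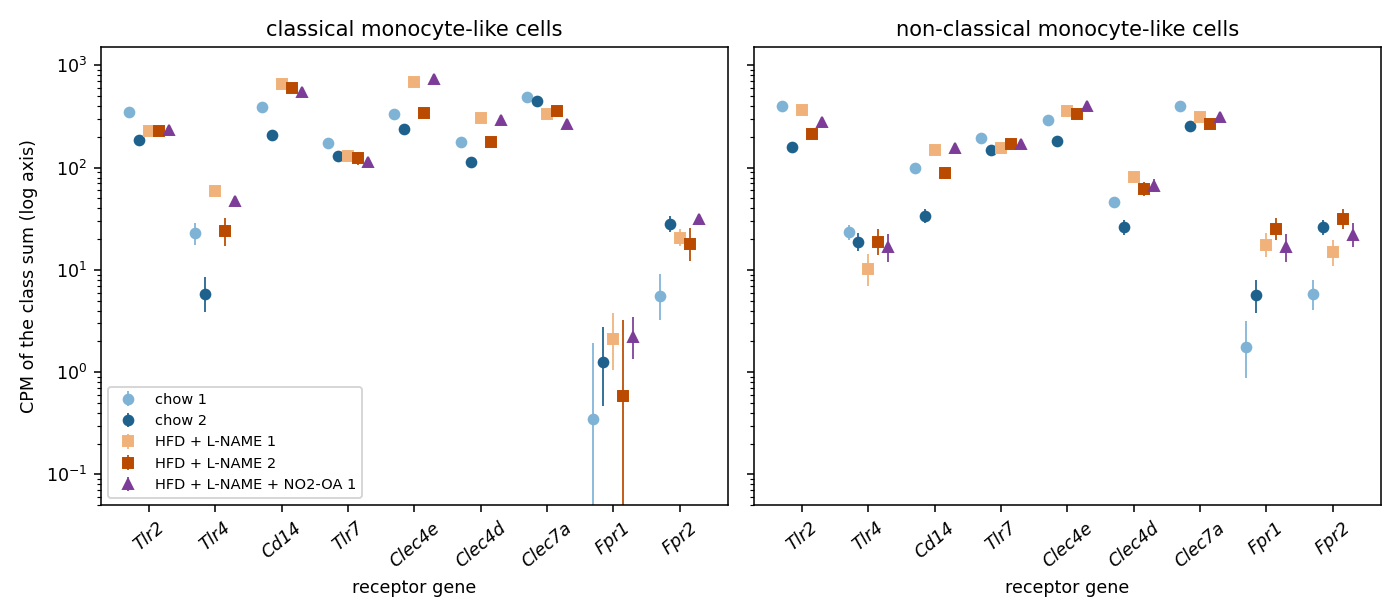
Level of 9 receptor genes (Tlr9 is too sparse to draw) in classical (left) and non-classical (right) monocyte-like cells, in CPM on a log axis, 1 point per library with its exact 95% Poisson interval. In classical monocyte-like cells Cd14 is at 390 and 210 CPM in chow and at 660, 597 and 552 CPM in the 3 libraries on the regimen, and in non-classical ones Fpr1 is at 1.76 and 5.63 CPM in chow and 17.6, 25.3 and 16.7 CPM in the others.

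Non-classical monocytes are known for crawling along vessel walls. In the class like them 9 receptor genes were tested and edgeR called none of them, with 2 (Clec4d and Fpr1) at an unadjusted p below 0.05. It called none of 11189 genes (0%), with 316 genes at an unadjusted p below 0.05. DESeq2 called 7 genes, 1 of them a receptor gene, Fpr1, with an adjusted p of 0.0215. Fpr1 stood at 1.76 and 5.63 CPM in the chow libraries, 17.6 and 25.3 CPM in HFD + L-NAME and 16.7 CPM with NO2-OA. Every library on the regimen lay above both chow libraries, and counts were low, with 11, 30, 57, 66 and 43 UMIs. Thinned to 2000 UMIs per cell, 0.51% and 0.57% of the cells held an Fpr1 UMI in the chow libraries, against 3.25% and 7.11% in HFD + L-NAME and 3.74% with NO2-OA. The fitted log2 fold change was 2.56 ± 0.49 (not past adjustment in edgeR), and it stayed between 1.95 and 3.53 with any 1 library left out. It passed in edgeR with no filter on low counts (adjusted p = 5.9e-08), a setting whose share of all genes passing is not given here. Fpr1 in this class was below the level set for naming, a mean of 20 CPM, and was picked after its values were seen. Summed neutrophil markers in these cells stood at 110 and 74.9 CPM in chow, 111 and 122 CPM in HFD + L-NAME and 144 CPM with NO2-OA. Of this Csf3r gave 103, 71.7, 97.4, 90.9 and 86.1 CPM in the same order. The sums were 0.085% to 0.194% of the level in neutrophil-like cells, and their part in the result was not tested.

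Clec4d stood at 46.3 and 26.3 CPM in chow, 80.4 and 61.4 CPM in HFD + L-NAME and 66.7 CPM with NO2-OA, so all libraries on the regimen were above both chow libraries. The fitted log2 fold change was 0.96 ± 0.32 and did not pass adjustment in edgeR. Clec4e stood at 290 and 183 CPM in chow, 360 and 334 CPM in HFD + L-NAME and 404 CPM with NO2-OA, again without overlap, at 0.54 ± 0.26, which did not pass either. Cd14 overlapped here, with 99.8 and 33.8 CPM in chow, 150 and 89.3 CPM in HFD + L-NAME and 155 CPM with NO2-OA, at 0.83 ± 0.58. The fitted changes of Tlr2 (0.05 ± 0.53), Tlr7 (-0.10 ± 0.21), Clec7a (-0.18 ± 0.26) and Fpr2 (0.55 ± 0.72) were all within 1 SE of 0. Tlr4, at a mean of 17.5 CPM below the level for naming, overlapped at -0.56 ± 0.33. Without chow 1, Clec4d was 1.48, Clec4e 0.97 and Cd14 1.87. Without chow 2 they were 0.58, 0.22 and 0.23, while Fpr2 was 1.94. Clec4d passed with no filter on low counts (adjusted p = 0.023 in edgeR), where the share of all genes passing is not given here. Of 9 genes 3, Clec4e, Clec4d and Fpr1, thus had both HFD + L-NAME libraries above both chow libraries, against 15.2% of all genes, and none had both below, against 13.9%. Erythroid markers in the class summed to 81.3 and 35.3 CPM in chow, 180 and 326 CPM in HFD + L-NAME and 581 CPM with NO2-OA, and their part in the result was not tested. A test of the difference between the classical and non-classical fold changes called none of 12330 genes, and for no receptor gene was it past adjustment, Tlr4 (a difference of 2.36 ± 1.02) and Fpr1 (-1.40 ± 0.91) included.

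The receptor genes were also summed over all kept cells, as bulk blood would show them, and the classes that supplied their UMIs differed by library. In such a sum, more cells of a type and more RNA per cell cannot be told apart. EdgeR called none of 20505 genes (0%), with 591 at an unadjusted p below 0.05, among them 5 receptor genes (Tlr4, Cd14, Clec4e, Clec4d and Fpr1). DESeq2 called 40 genes higher and 4 lower, of which Clec4e and Fpr1 are receptor genes. Of 10 receptor genes 6, Tlr4, Cd14, Clec4e, Clec4d, Fpr1 and Fpr2, had both HFD + L-NAME libraries above both chow libraries, against 12.8% of all genes, and none had both below, against 13.9%.

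For Clec4d 1 library stood out. The gene stood at 73.8 and 31.9 CPM in chow, 108 and 311 CPM in HFD + L-NAME and 122 CPM with NO2-OA. HFD + L-NAME 2 was far above the rest, and 66.0% of its Clec4d UMIs came from neutrophil-like and 27.6% from macrophage-like cells, and neutrophil-like cells gave 66.9% to 71.6% in chow 1, HFD + L-NAME 1 and NO2-OA. Chow 2 was the exception, with 6.6% from its 9 neutrophil-like and 52.4% from macrophage-like cells. The fitted log2 fold change was 2.06 ± 0.68 with all cells and 0.87 ± 0.32 once these 2 classes were left out. Cd14 stood at 24.6 and 55.0 CPM in chow, 70.0 and 282 CPM in HFD + L-NAME and 90.8 CPM with NO2-OA, and macrophage-like cells gave 75.2% of its UMIs in HFD + L-NAME 2 and 61.7% in chow 2. Its fitted value was 2.23 ± 0.80 with and 1.31 ± 0.23 without the 2 classes, neither past adjustment in edgeR.

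Clec4e stood at 47.9 and 43.4 CPM in chow, 102 and 146 CPM in HFD + L-NAME and 133 CPM with NO2-OA. Its fitted log2 fold change was 1.52 ± 0.25 with all cells and 0.77 ± 0.34 without the neutrophil-like and macrophage-like cells. Clec7a turned direction: it was 0.73 ± 0.40 with all cells and -0.34 ± 0.20 without the 2 classes, the sign it also had inside both monocyte-like classes. Tlr2 turned from 0.39 ± 0.27 to -0.10 ± 0.31 as well, both within the spread. Tlr4 was 0.91 ± 0.27 and then 0.35 ± 0.24, and Fpr2 1.18 ± 0.48 and then 0.13 ± 0.79. Fpr1 was at 2.50 ± 0.45 and then 1.91 ± 0.68, and Tlr7 was near 0 in either sum (-0.06 ± 0.21 and -0.14 ± 0.18). The sparse Tlr9 gave 0.35 ± 0.50 over all cells and 0.49 ± 0.50 without the 2 classes.

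**Figure D4:**
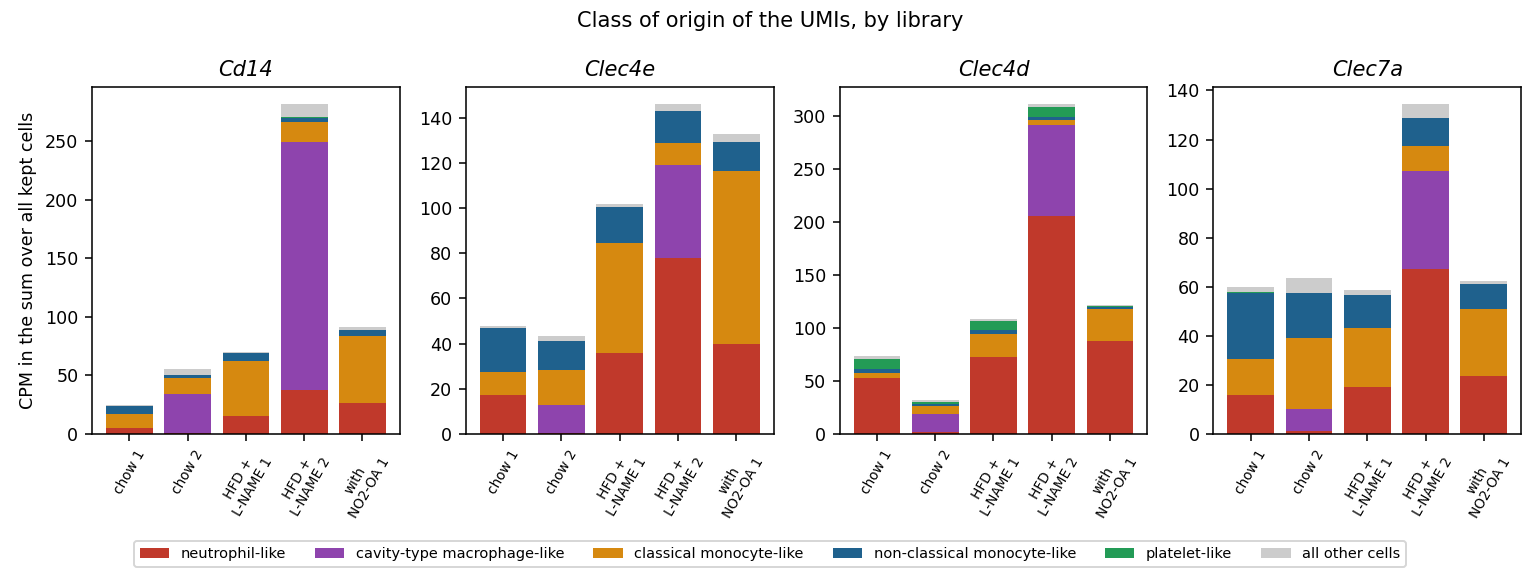
Stacked bars of the CPM of Cd14, Clec4e, Clec4d and Clec7a in the sum over all kept cells of each library, coloured by the class the UMIs came from; each panel has its own axis from 0. In HFD + L-NAME 2 neutrophil-like and macrophage-like cells give most of each bar, and macrophage-like cells alone give 75.2% of Cd14.

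**Figure D5:**
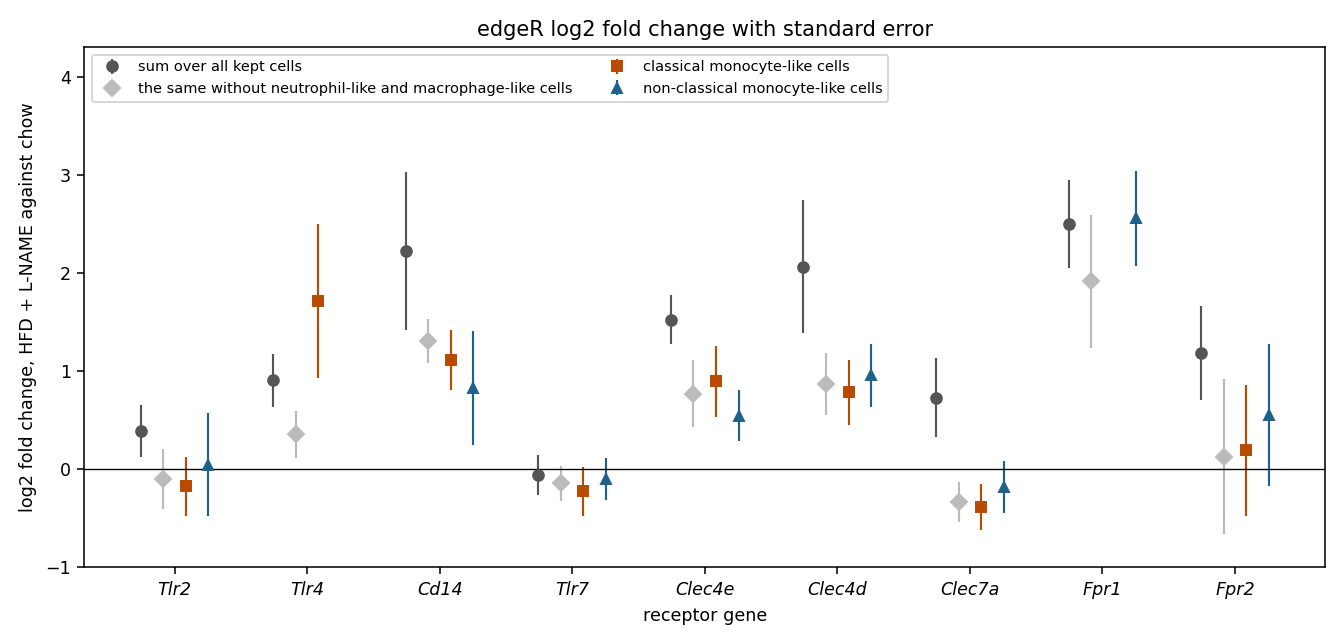
Fitted log2 fold change of HFD + L-NAME against chow with its approximate standard error for 9 receptor genes, in the sum over all kept cells, in that sum without neutrophil-like and macrophage-like cells, and in both monocyte-like classes; genes averaging under 20 CPM in a class are left out, apart from Fpr1 in non-classical monocyte-like cells. Without those cells Clec7a and Tlr2 change sign, and Cd14 goes from 2.23 to 1.31.

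In the remaining tested classes few receptor genes had signal. Platelet-like Clec4d did not separate the groups, with a fitted log2 fold change of -0.0022 ± 0.39, so a difference of the size of that SE was not detectable. Neither of the 2 genes tested there, Clec4d and Cd14, had groups that did not overlap, while 12.7% of 5801 genes had both HFD + L-NAME libraries above both chow libraries and 9.45% had both below. In B-like cells 8 receptor genes were tested and edgeR called none of them or of the 16716 genes (0%). An unadjusted p below 0.05 was found for 229 genes, of which Tlr7 alone is a receptor gene. DESeq2 called 4 genes, none of them receptors. B-like Tlr7 stood at 15.2 and 9.53 CPM in chow, 8.03 and 7.14 CPM in HFD + L-NAME and 14.0 CPM with NO2-OA, so both HFD + L-NAME libraries were below both chow libraries. Its fitted log2 fold change was -0.70 ± 0.29 (not past adjustment in edgeR), and as it averaged under 20 CPM it was picked after its values were seen. Tlr4 in B-like cells (-0.29 ± 0.26) had both HFD + L-NAME libraries below chow too, as 11.4% of all genes had, and Clec4e had both above, as 12.0% had. In T-like cells 7 receptor genes were tested and edgeR called none of them or of the 16845 genes (0%), with 261 genes and no receptor gene at an unadjusted p below 0.05, while DESeq2 called 7 genes, none of them receptors. Clec4e alone had both HFD + L-NAME libraries above (11.9% of all genes did), and none had both below (12.4%).

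The second comparison set the NO2-OA library against the 2 HFD + L-NAME libraries, which also serve in the first comparison. With 1 library its spread is assumed to equal that of the other groups. EdgeR called no receptor gene and none of 12028 genes in classical monocyte-like cells (0%, with 183 at an unadjusted p below 0.05), none of 11189 in non-classical ones (0%, with 255) and none of 20505 in the sum over all cells (0%, with 583). DESeq2 called 3 genes lower in the first, 1 higher and 11 lower in the second and 6 higher and 133 lower in the sum, and none was a receptor gene.

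Within classical monocyte-like cells the NO2-OA library stayed on the HFD + L-NAME side of both chow libraries for Cd14, Clec4e, Clec4d, Tlr4 and Clec7a. These are the genes whose HFD + L-NAME libraries already lay apart from chow, except the sparse Tlr9, for which it did not. The share of all such genes that kept their side is not given here, so nothing particular to the receptors can be read from this. Cd14 at 552 CPM was slightly below the 660 and 597 CPM of HFD + L-NAME, with a log2 fold change of -0.18 ± 0.37. Clec4e at 741 CPM was above both, at 0.53 ± 0.43, and Clec7a at 265 CPM was below both, at -0.38 ± 0.29. Clec4d (0.27 ± 0.39), Tlr4 (0.14 ± 0.86), Tlr2 (0.02 ± 0.36), Tlr7 (-0.16 ± 0.31) and Fpr2 (0.68 ± 0.75) were within 1 SE of 0. Of 10 receptor genes 4 (Tlr9, Clec4e, Fpr1 and Fpr2) had the NO2-OA library above both others, where 30.5% of all genes did, and 3 (Tlr7, Cd14 and Clec7a) had it below, where 29% did.

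In non-classical monocyte-like cells the values were 0.18 ± 0.32 for Clec4e, -0.13 ± 0.39 for Clec4d, 0.32 ± 0.70 for Cd14, -0.39 ± 0.56 for Fpr1, 0.07 ± 0.32 for Clec7a, -0.12 ± 0.65 for Tlr2, 0.02 ± 0.26 for Tlr7 and -0.09 ± 0.91 for Fpr2, all within 1 SE of 0. Clec4e alone lay above both HFD + L-NAME libraries (32.9% of all genes did) and Fpr1 alone below (32.7%). In the sum over all cells Tlr2, Tlr4, Tlr9 and Clec7a lay below both (30.5%) and none above (34.4%). Cd14 there was -1.05 ± 0.99, and 0.36 ± 0.27 without neutrophil-like and macrophage-like cells, the latter being absent from the NO2-OA library. Clec4e went from 0.0038 ± 0.30 to 0.82 ± 0.40 in the same way, without passing the test. Platelet-like Clec4d was 0.08 ± 0.50, in a class of 96 cells where the median gene was at -0.29. It lay between the HFD + L-NAME libraries, while 26.8% of genes lay above and 49.1% below both.

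A low Clec4d signal was seen in lymphocytes, beside platelet markers. In T-like cells Clec4d stood at 2.65, 2.01, 2.41, 3.74 and 0.87 CPM and in B-like cells at 3.32, 2.23, 2.52, 4.01 and 1.02 CPM, in the order chow 1, chow 2, HFD + L-NAME 1, HFD + L-NAME 2 and NO2-OA. The NO2-OA library was lowest in both, with a log2 fold change against HFD + L-NAME of -1.85 ± 0.54 in T-like and -1.67 ± 0.54 in B-like cells, neither past adjustment in edgeR and both below the level for naming. Lying below both HFD + L-NAME libraries was shared by 31% of all genes in T-like and 34.5% in B-like cells, and lying above by 32.9% and 29.3%. The receptor genes below both were Cd14 and Clec4d in T-like and Tlr4, Tlr9 and Clec4d in B-like cells, and those above were Tlr2, Tlr4, Tlr7 and Clec4e in T-like and Tlr7 and Clec4e in B-like cells. EdgeR called no gene in T-like or B-like cells, with 254 and 294 genes at an unadjusted p below 0.05. Among these were Clec4d in both classes and Tlr7 in B-like cells, at a log2 fold change of 0.87 ± 0.35. DESeq2 called 42 and 54 genes lower, none of them receptors. Platelet markers in B-like cells summed to 688, 395, 455, 243 and 43.6 CPM in the same order, also lowest with NO2-OA. Neutrophil markers there summed to 10.9, 2.94, 17.7, 39.0 and 36.5 CPM and cavity-type macrophage markers to 5.73, 23.1, 4.38, 27.6 and 4.37 CPM, both highest in HFD + L-NAME 2, as Clec4d was. The part of these markers in the Clec4d values was not tested.

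The other genes of these pathways were followed through lists of 13 further Toll-like receptors and co-receptors, 17 adaptors and kinases, 15 C-type lectin receptors and signalling genes, 5 formyl peptide receptor relatives, 7 cytosolic sensor symbols and 16 early target genes. For HFD + L-NAME against chow edgeR called none of them in any tested class or in the sum over all kept cells. DESeq2 called Il1b in classical monocyte-like cells and in the sum over all kept cells. In classical monocyte-like cells the early targets had 11 of 15 measured genes above 0 (median log2 fold change 0.05, 3 at an unadjusted p below 0.05), and the lectin list had 10 of 15 (median 0.18, 1 unadjusted). Of the further Toll-like receptors 6 of 10 were above 0 (median 0.15), of the adaptors 7 of 17 (median -0.02), of the formyl peptide receptor relatives 3 of 3 (median 0.14) and of the cytosolic sensors 2 of 6 (median -0.19). Over all genes tested in the class the median was -0.01 and 49.3% were above 0.

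Il1b, the gene of the inflammatory cytokine interleukin 1 beta and one of the early targets, had 57.3 and 52.9 normalised CPM in chow, 237 and 141 normalised CPM in HFD + L-NAME and 288 with NO2-OA in classical monocyte-like cells. All libraries on the regimen lay above both chow libraries, at a fitted log2 fold change of 1.79 ± 0.29 with an adjusted p of 0.105 in edgeR. Il1b lies outside the naming rule, was picked after its values were seen, and is also a leading gene of the neutrophil-like cells, whose markers are given above.

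Cxcl2, a neutrophil-attracting chemokine and early target, had 651 and 417 normalised CPM in chow, 1645 and 768 normalised CPM in HFD + L-NAME and 1690 with NO2-OA. Its libraries followed the same order as those of Clec4e, with HFD + L-NAME 1 and NO2-OA high, and the fitted log2 fold change was 1.18 ± 0.38 (not past adjustment in edgeR). The NF-kappaB inhibitor Nfkbia (0.02 ± 0.27) and the mRNA decay factor Zfp36 (-0.15 ± 0.29), feedback genes named for their high mean level, did not separate the groups. Other feedback genes of the list are not given for this class. Of the lectin signalling genes, the adaptor chain Fcer1g gave 0.23 ± 0.26, the kinase Syk -0.03 ± 0.24 and its downstream protease Malt1 -0.42 ± 0.45. Of the Toll-like receptor genes, the endosomal chaperone Unc93b1 gave -0.04 ± 0.24, Ly86 -0.08 ± 0.24 and Tlr13 0.09 ± 0.24. The adaptor and kinase list was led by Irak2 (-0.01 ± 0.36), Pik3ap1 (-0.02 ± 0.41) and Tab2 (-0.21 ± 0.24), and the cytosolic sensors by Ripk2 (0.17 ± 0.24), Ifih1 (-0.34 ± 0.27) and Nod1 (-0.40 ± 0.31). The G protein genes Gnai2 (0.14 ± 0.26) and Gnai3 (0.08 ± 0.25) and the receptor ligand gene Anxa1 (0.43 ± 0.26) led the formyl peptide list.

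In non-classical monocyte-like cells the early targets had 9 of 15 above 0 (median 0.09), the lectin list 6 of 13 (median -0.04), the further Toll-like receptors 5 of 9 (median 0.01), the adaptors 6 of 17 (median -0.07), the formyl peptide relatives 2 of 3 (median 0.01) and the sensors 1 of 6 (median -0.21), beside 49.0% of all genes. The most abundant early targets were Zfp36 at -0.45 ± 0.22, Nfkbia at 0.02 ± 0.22 and Nfkbiz at -0.07 ± 0.22. In B-like cells the early targets had 5 of 14 above 0 (median -0.19, 2 unadjusted), beside 49.7% of all genes. T-like cells had 11 of 14 (median 0.52, 3 unadjusted), beside 49.2%, and the sum over all kept cells 14 of 16 (median 0.60, 3 unadjusted), beside 49.5%. For NO2-OA against HFD + L-NAME edgeR also called none of the listed genes in any tested class or in the sum, and DESeq2 called only the lectin gene Cd209a, in the sum. The early targets in B-like cells then had 10 of 14 above 0 (median 0.41, 3 unadjusted) where the median of all genes was -0.03. Classical monocyte-like cells had 9 of 15 (median 0.27, 3 unadjusted) and non-classical ones 8 of 15 (median 0.01). T-like cells had 4 of 14 (median -0.12) and the sum over all kept cells 5 of 16 (median -0.30). Platelet-like cells had 3 of 11 (median -0.43), where the median of all genes was -0.29. In non-classical monocyte-like cells the cytosolic sensors had 4 of 6 above 0 (median 0.31, 2 unadjusted), against 2 of 6 in classical ones (median -0.19). Ripk2, a kinase of the NOD sensors, gave 0.57 ± 0.23 in the non-classical cells and Ifih1, a sensor of viral RNA, 0.79 ± 0.27. Neither was past adjustment in edgeR, and both were picked for this comparison after the values were seen.

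Genes with the most similar pattern were taken by the Pearson correlation of log2(CPM + 1) over 25 values, the 5 tested classes in 5 libraries. These values share libraries and depth, and the correlations mostly reflect which classes carry a gene. Nearest to Cd14 were the chemokine gene Ccl2 (r = 0.988) and Ptafr (0.987). Nearest to Clec4e were Ltbr (0.988), Gm5150 (0.988) and Lrp1 (0.987), and nearest to Clec7a were Ptpro (0.995), Csf3r (0.995) and Cd300a (0.994). Clec4d had weaker neighbours, Alox5ap (0.980), a leukotriene synthesis gene, Prdx5 (0.969) and Camk1 (0.966). Tlr2 was nearest to Rasgrp4 (0.993), Dram1 (0.993) and Ltbr (0.989), Tlr4 to Eps8 (0.949), Zc3h12c (0.936) and Fcgr2b (0.933), and Tlr7 to Amz1 (0.994), Plbd1 (0.993) and Nfam1 (0.987). For the sparse Tlr9 they were Cd40 (0.880), Snx8 (0.878) and Upb1 (0.866), for Fpr1 Tcp10a (0.934), Spag11b (0.934) and Sros1 (0.929), and for Fpr2 Shtn1 (0.988), Pla2g7 (0.984) and Pld1 (0.982). Among the receptors themselves Clec4d and Tlr9 were the least like the others, with r from -0.15 to 0.59 and from -0.15 to 0.57 with the other 9.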

How the data were processed

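The deposited files hold raw counts of UMIs per gene and cell barcode, 1 matrix per library, from 10x Genomics 3' droplet libraries of frozen and thawed mononuclear cells. Per the file headers they came from Cell Ranger 7.1.0, and per the submitters' processing notes from bcl2fastq and the mm39 build; the annotation release is not given in the sources used here. Barcodes with at least 200 genes and under 10% mitochondrial UMIs were kept, and scrublet (scanpy 1.11.5) removed the top-scoring 6.79% to 14.4% of barcodes as doublets, a share set by the number of barcodes. Cells were grouped with Leiden (leidenalg 0.10.2, resolution 1, 40 principal components, 20 neighbours) and named from marker scores (at least 0.4, margin 0.1), thresholds set after the data were seen. Counts were summed for each class that had 50 or more cells in all libraries, and tested with edgeR 4.0.16 (R 4.3.3): filterByExpr, TMM, group means over 5 libraries, 2 residual degrees of freedom. An SE is the log2 fold change over the square root of F. Groups overlap or not by TMM-normalised CPM. The scripts were tested on simulated data. Named were all 10 receptors, with fitted values where they average at least 20 CPM, and from each pathway list the 3 genes with the highest mean unless some were called. The members, lists and rules were chosen with earlier results of these data known.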

Additional observations from a re-analysis of the deposited data

Results flagged for a closer look

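Tlr4 lay on opposite sides of chow in different classes. In classical monocyte-like cells both HFD + L-NAME libraries were above both chow libraries, as for 14.5% of all genes, with a fitted log2 fold change of 1.71 ± 0.78. HFD + L-NAME 2 did not differ from chow 1 beyond counting error there. In B-like cells both HFD + L-NAME libraries were below both chow libraries, as for 11.4% of all genes, with -0.29 ± 0.26. The margin there was small, with a normalised log2 ratio of -0.10 for HFD + L-NAME 2 to chow 2. In non-classical monocyte-like cells Tlr4 overlapped, with -0.56 ± 0.33. The B-like and non-classical levels were below the one set for naming. The difference between classical and B-like cells was not tested, and that between classical and non-classical cells (2.36 ± 1.02) did not pass adjustment. None of the fitted values passed adjustment in edgeR's quasi-likelihood test. The classical value was 0.99 without chow 2, 0.77 without HFD + L-NAME 1 and 2.94 without chow 1. It passed with no filter on low counts (adjusted p = 0.042 in edgeR), a setting whose share of all genes passing is not given here.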

How the results depend on the processing

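Of 907 refits of the 54 fitted log2 fold changes, 819 kept direction and side of the threshold, 20 came to pass it and 68 changed sign, mostly near 0. Counted over the tested classes, receptor genes called for the regimen against chow numbered 0 in edgeR's quasi-likelihood test, 3 with DESeq2, 4 with no filter on low counts and 2 with a replicate block, and 0 to 8 with 1 library left out. The 8 came without chow 1 (Tlr4, Cd14, Clec4e and Clec4d in classical, Cd14, Clec4e, Clec4d and Fpr1 in non-classical monocyte-like cells) and 3 without chow 2 (Fpr2 in both, Fpr1 in non-classical). The cause was not tested. Of all genes, DESeq2 called 40 higher and 4 lower of 20505 over all cells, and 7 higher of 11189 in non-classical monocyte-like cells. The share of all genes called with no low-count filter or with 1 library left out is not given here. Nothing particular to the receptors can therefore be read from the counts in those settings. Without chow 1 or chow 2 only 1 chow library is left, and it is assumed to vary like the other groups. For NO2-OA the count was 0 in every setting. By the share of cells with a UMI, 3 and not 7 receptor genes were highest in neutrophil-like cells. This share was taken without thinning and depends on depth. The median, predicted doublets included, was 5608 UMIs per neutrophil-like and 13620.5 per classical monocyte-like barcode. The count at even depth is not given here.

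The replicate block in edgeR called classical Tlr4 (1.69, adjusted p = 0.0019) and Cd14 (1.17, adjusted p = 0.029). It called 58 genes higher and 20 lower among the 12028 of that class. Deviations of libraries with the same number correlated at 0.108 to 0.394 over the tested classes, and what a number shares is not in the labels. Signs turned with the block for NO2-OA in Cd14 (0.048) and Tlr7 (0.029) over all cells, in classical Tlr2 (-0.23), Tlr4 (-0.45) and Clec4d (-0.029), in non-classical Clec4e (-0.057), Clec7a (-0.18), Fpr1 (0.054), Fpr2 (0.79), Cd14 (-0.23) and Tlr7 (-0.087) and in platelet-like Clec4d (-0.016, and 0.0020 for the regimen).

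Without neutrophil-like and macrophage-like cells, an alternative chosen after the data were seen, signs over all cells turned for the regimen in Tlr2 (-0.099) and Clec7a (-0.34), and for NO2-OA in Tlr2 (0.19), Tlr4 (0.037), Clec4d (0.11), Clec7a (0.0045), Fpr1 (-0.56), Cd14 (0.36) and Tlr7 (0.050). Clec4e over all cells turned for NO2-OA with DESeq2 and with its size factors (-0.0084 in each), with at least 500 genes (-0.014) and with doublets kept (-0.024). Doublets kept also turned classical Tlr2 (-0.00036) and non-classical Tlr7 (-0.0099), thinned counts Fpr1 over all cells (-0.0099) and a 5% mitochondrial limit Tlr7 over all cells (0.0078), all for NO2-OA. Classical Tlr2 for NO2-OA was -0.00064 with the receptors among the clustering genes and -0.0023 with centred clustering. Platelet-like Clec4d for NO2-OA and for the regimen was -0.16 and 0.065, and -0.24 and 0.081, in the same 2 settings, and -0.10 and 0.042 with no low-count filter. For the regimen it was 0.0098 with only the groups compared and 0.013 at resolution 2, which otherwise left the monocyte-like classes almost as they were.

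With 1 library left out, values crossed 0 for the regimen over all cells in Tlr9 (-0.061 to 0.93) and Tlr7 (-0.18 to 0.055), in classical Tlr2 (-0.56 to 0.32) and Fpr2 (-0.49 to 1.84), in non-classical Tlr2 (-0.50 to 0.93), Clec7a (-0.50 to 0.23), Fpr2 (-0.16 to 1.94) and Tlr7 (-0.32 to 0.16) and in platelet-like Clec4d (-0.095 to 0.14). For NO2-OA they did so over all cells in Clec4d (-1.45 to 0.048), Clec4e (-0.23 to 0.26), Fpr1 (-0.41 to 0.63), Fpr2 (-0.014 to 0.89), Cd14 (-1.73 to 0.25) and Tlr7 (-0.17 to 0.057), in classical Tlr2 (-0.034 to 0.066), Tlr4 (-0.36 to 1.06) and Clec4d (-0.090 to 0.76) and in non-classical Tlr2 (-0.47 to 0.36), Clec4d (-0.33 to 0.11), Clec7a (-0.052 to 0.22), Fpr2 (-0.51 to 0.51), Cd14 (-0.012 to 0.79) and Tlr7 (-0.0065 to 0.069). Depth limits Tlr9 everywhere and Fpr1 in monocyte-like cells, where a library held 11 to 66 UMIs in the non-classical class.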
